A study of Mus musculus with 18 samples.

Results

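The serum amyloid A genes of the mouse (*Saa1*, *Saa2*, *Saa3* and *Saa4*) were examined in ileum cells of mice on chow and on a high-fat diet. They were chosen because *Saa1* and *Saa2* were far lower on the high-fat diet than on chow, so the diet difference of these genes is given as a description, without a test. The members were all probes that the array files assign to these gene names, which gave 4 genes of 37074 gene names on the array. RNA came from 18 male mice of C57BL6/J background, 6 per group, each hybridised to its own Agilent one-colour array, where short DNA probes printed as spots catch labelled RNA and a brighter spot means more of that transcript. One group was iPGC1afl/fl on CHOW, one was iPGC1afl/fl on HFD and one was iPGC1a-/- on HFD. All mice carried the floxed *Ppargc1a* allele, and in iPGC1a-/- mice the Vil1-Cre transgene deletes this coactivator gene in the intestinal epithelium only. The diet was started at an age of 8 weeks and lasted 8 weeks, and HFD supplied 42% of its kcal as fat with 0.2% cholesterol. iPGC1a-/- mice on CHOW were not analysed here. Cells were released from the opened ileum with a chelating buffer and pooled per mouse, so each array reads a mixture of epithelial and other cells and not single cells.

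Serum amyloid A proteins are small apolipoproteins that travel on high-density lipoprotein. In the liver they are the classic acute phase proteins, made in large amounts when interleukin 6 and interleukin 1 reach the hepatocyte. The ileal epithelium makes SAA1 and SAA2 itself, in contact with attaching gut bacteria and under the control of interleukin 22 and STAT3, and there they carry retinol and act on T helper 17 cells. SAA3 is also made by macrophages and adipocytes, while SAA4 is the constitutive form of the liver.

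Each gene was read by 1 probe of 60 bases, all on chromosome 7 (coordinates of the array files, build mm9). The *Saa1* probe lies at chr7:53996070-53996129 on the minus strand and the *Saa2* probe at chr7:54009535-54009594 on the plus strand. The *Saa3* probe lies at chr7:53967559-53967618 and the *Saa4* probe at chr7:53983662-53983721, both on the minus strand. Each probe spans 60 unbroken genomic bases, so it does not cross an exon junction. Since the gene table lists Saa2 as an older name of *Saa1* and Saa1 as an older name of *Saa2*, both were matched by transcript accession. The stretches of the *Saa1* and *Saa3* transcripts that gave the signals below are shown here, from the array files, to make plain what was measured.
*Saa1* probe: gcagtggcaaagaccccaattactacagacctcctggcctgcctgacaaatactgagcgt
*Saa3* probe: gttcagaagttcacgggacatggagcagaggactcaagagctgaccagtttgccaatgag
The longest run of bases that any 2 of the 4 probes share was 4 to 6 bases. Probes were compared with each other and not with the transcripts of the other members. Whether the *Saa1* probe also binds the transcript of *Saa2*, or the reverse, was not tested.

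*Saa1* and *Saa2* are neighbours that point away from each other, with 8.85 kb between their starts. The 250 bases before the start of each gene are shown for the 3 members with measured values. Whether this stretch bears on their signals was not tested. The sequences are those of RefSeq on GRCm38.p6, at chr7:46742981-46743230 (minus strand) for *Saa1*, chr7:46751583-46751832 (plus strand) for *Saa2* and chr7:46715677-46715926 (minus strand) for *Saa3*, and capitals mark a match to the C/EBP motif TTGCNNAA on either strand.
*Saa1* upstream: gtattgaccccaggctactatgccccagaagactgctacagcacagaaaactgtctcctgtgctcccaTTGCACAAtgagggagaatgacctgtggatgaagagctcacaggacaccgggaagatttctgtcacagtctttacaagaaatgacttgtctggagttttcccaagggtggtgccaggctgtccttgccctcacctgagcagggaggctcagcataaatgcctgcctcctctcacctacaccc
*Saa2* upstream: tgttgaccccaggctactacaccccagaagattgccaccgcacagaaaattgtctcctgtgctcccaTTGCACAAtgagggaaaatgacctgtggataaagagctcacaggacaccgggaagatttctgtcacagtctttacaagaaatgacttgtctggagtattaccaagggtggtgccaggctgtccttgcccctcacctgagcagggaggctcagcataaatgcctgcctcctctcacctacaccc
*Saa3* upstream: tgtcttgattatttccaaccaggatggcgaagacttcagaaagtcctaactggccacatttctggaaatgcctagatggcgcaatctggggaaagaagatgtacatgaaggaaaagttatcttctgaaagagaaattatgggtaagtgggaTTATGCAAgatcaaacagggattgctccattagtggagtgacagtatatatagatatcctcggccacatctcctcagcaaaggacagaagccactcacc
The stretches of *Saa1* and *Saa2* were 94.8% identical, with 238 identical positions in an alignment of 251. *Saa3* shared 52.2% with *Saa1* and 52.4% with *Saa2*. Counted from the start of the gene, the C/EBP motif stood at -182 to -175 in *Saa1*, at -183 to -176 in *Saa2*, and at -99 to -92 in *Saa3*, there on the opposite strand. *Saa4* held 2 matches. Among 32841 upstream stretches of the same length, 9.57% held this motif. The STAT motif TTCNNNGAA and the NF-kB motif, searched on both strands, and TATAAA, searched on the strand of the gene, matched in none of the 4 members. They were held by 7.02%, 3.9% and 7.59% of all stretches. A match is a string of letters and not a measured binding site.

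On CHOW, *Saa1* and *Saa2* were bright in every mouse, and on HFD they were dim in every mouse of both genotypes. In iPGC1afl/fl CHOW the raw median spot signal of *Saa1* ran from 3111 to 13789 intensity units with a median of 7196. In iPGC1afl/fl HFD it ran from 160 to 418 (median 197.25), and in iPGC1a-/- HFD from 174 to 671 (median 290.5). The lowest CHOW array was thus brighter than the highest HFD array of either genotype. *Saa2* ran from 3394 to 15878.5 in iPGC1afl/fl CHOW (median 9021.75), from 82.5 to 355 in iPGC1afl/fl HFD (median 110.25) and from 124 to 722 in iPGC1a-/- HFD (median 193.75). Both probes were well above background, the scanner software's own test of a spot against its surroundings, on all 6 arrays of each group. The local background of these spots was 17 to 25 units, so the dim HFD values were still measured signals.

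*Saa3* was dim throughout. Its raw signal was 59 to 402.5 units in iPGC1afl/fl CHOW (median 111), a spot well above background for 6 of 6 arrays. In iPGC1afl/fl HFD the signal was 26 to 51.5 units (median 33.75) and well above background on 2 of 6 arrays, and in iPGC1a-/- HFD it was 22.5 to 37 units (median 34), on 4 of 6. *Saa3* therefore passed the filter on dim probes through the CHOW group alone, where it is high. *Saa4* gave 21 to 29 units over a local background of 14 to 19 and was well above background on 0 of 18 arrays. It was left out of the fits and no fold change is given for it. Of the 4 members, 3 passed the filter.

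**Figure D1:**
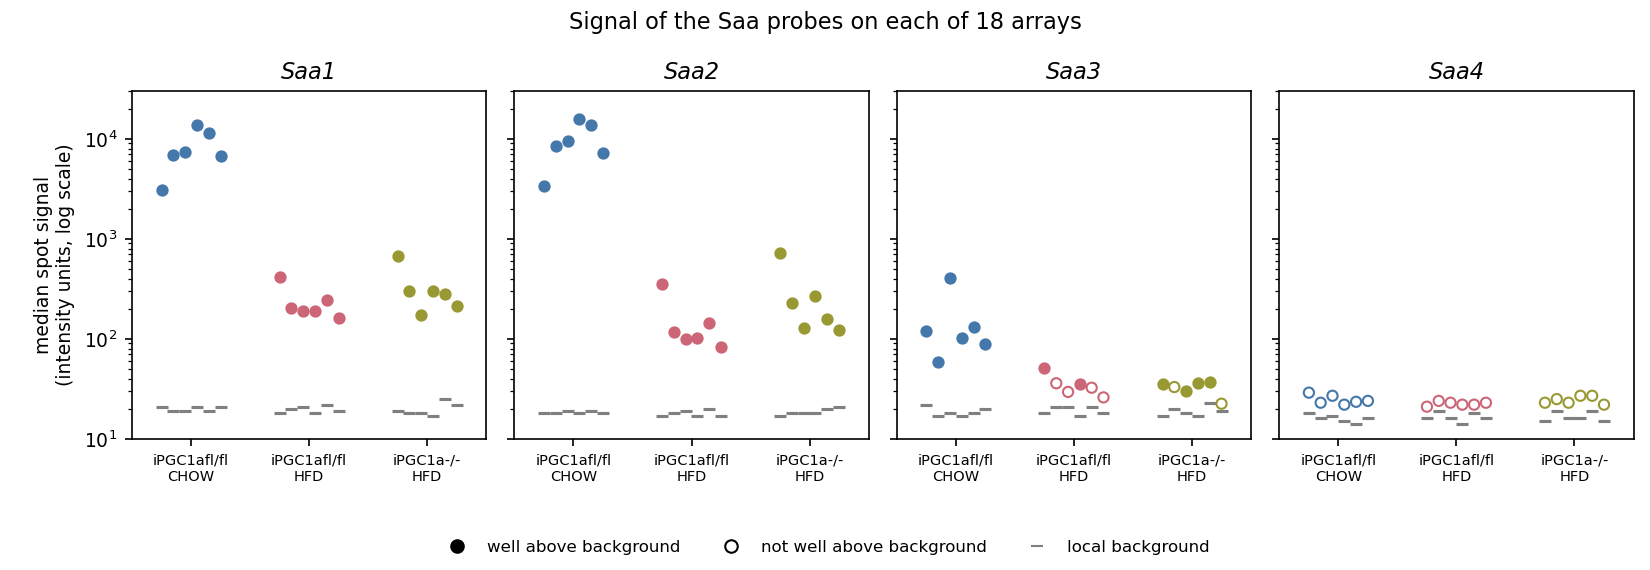
Median spot signal (intensity units, log scale) of the 4 Saa probes on the 18 arrays, 6 per group, with the local background of each spot as a grey dash; open circles are spots not well above background. *Saa1* and *Saa2* lie at 3111 units or above in all CHOW mice and at 722 or below in all HFD mice, *Saa3* lies near background on HFD, and *Saa4* lies near background on all arrays.

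After normalization, the log2 signal of *Saa1* was 11.67 to 13.72 in iPGC1afl/fl CHOW (median 12.81), 7.36 to 8.55 in iPGC1afl/fl HFD (median 7.86) and 7.65 to 9.55 in iPGC1a-/- HFD (median 7.99). The groups had means of 12.80 ± 0.71, 7.88 ± 0.39 and 8.22 ± 0.71 (SD, n = 6 each). The difference of iPGC1afl/fl HFD from iPGC1afl/fl CHOW was -4.92 on the log2 scale (standard error 0.31), which is 30.3-fold lower. *Saa2* was at 11.80 to 13.90 in iPGC1afl/fl CHOW (median 13.11), 6.52 to 8.30 in iPGC1afl/fl HFD (median 6.98) and 6.88 to 9.67 in iPGC1a-/- HFD (median 7.58). Its means were 13.02 ± 0.75, 7.11 ± 0.62 and 7.81 ± 1.01 (SD, n = 6 each), and the diet difference was -5.91 (standard error 0.41), 60.1-fold lower. *Saa2* and *Saa1* had the lowest diet differences of the 21542 genes tested. For both, the order of the levels was iPGC1afl/fl CHOW, then iPGC1a-/- HFD, then iPGC1afl/fl HFD, and the last 2 groups overlapped.

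*Saa3* was at 5.77 to 8.83 in iPGC1afl/fl CHOW (median 6.71), 4.89 to 5.60 in iPGC1afl/fl HFD (median 5.04) and 4.58 to 5.24 in iPGC1a-/- HFD (median 5.09). Its means were 6.86 ± 1.05, 5.12 ± 0.26 and 5.02 ± 0.24 (SD, n = 6 each). The diet difference was -1.74 (standard error 0.32), but as 4 of the 6 iPGC1afl/fl HFD spots were not well above background its size is not settled, and it ranged from -3.13 to -1.15 with the background correction. The gap between the lowest CHOW array and the highest iPGC1afl/fl HFD array was 3.13 on the log2 scale for *Saa1* and 3.50 for *Saa2*, but 0.17 for *Saa3*. Thus the 6 CHOW arrays lay above the 6 iPGC1afl/fl HFD arrays for each of the 3 measured members, while 5.31% of all genes tested showed this. As the members were picked on this contrast, nothing is read from that count.

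**Figure D2:**
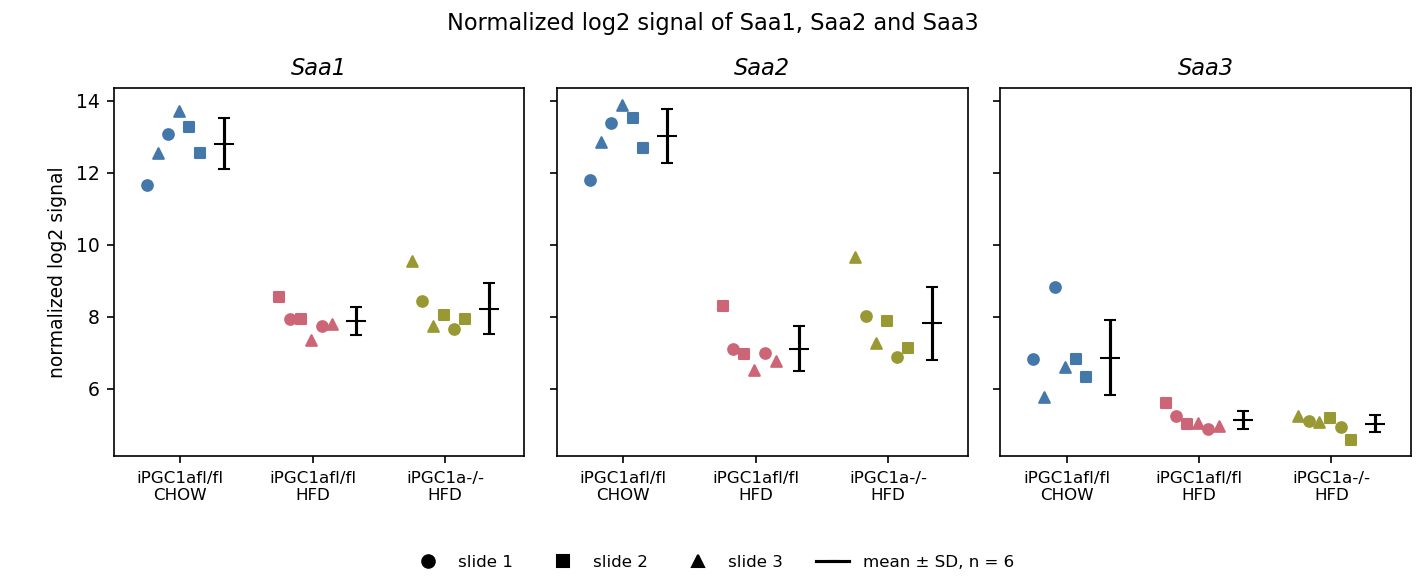
Normalized log2 signal of *Saa1*, *Saa2* and *Saa3* on each array by group, with the slide as the symbol and the mean ± SD of 6 arrays beside it. The CHOW arrays lie apart from both HFD groups, by at least 2.12 on the log2 scale for *Saa1* and 2.13 for *Saa2*, and the 2 HFD groups overlap.

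The arrays lay on 3 slides, each holding 2 arrays of every group. Within slides 1, 2 and 3 the diet difference of *Saa1* was -4.53, -4.67 and -5.56, and that of *Saa2* was -5.53, -5.47 and -6.73. The *Saa3* difference was -2.76 on slide 1, which holds the brightest CHOW array, and -1.27 and -1.18 on the other slides. The 3 measured members were thus lower on HFD within each slide, and the log2 difference of *Saa3* ran from -2.76 to -1.18 between slides. Without the brightest CHOW array, replicate 3, the *Saa3* difference was -1.36.

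Next, iPGC1a-/- and iPGC1afl/fl mice were compared on HFD, to ask whether the level reached on this diet depended on the genotype. This contrast did not choose the members, although it shares the iPGC1afl/fl HFD arrays with the contrast that did. *Saa1* was higher by 0.34 in iPGC1a-/- mice (standard error 0.31, 95% interval -0.32 to 0.99, limma adjusted p = 0.753, exact permutation p = 0.385). *Saa2* was higher by 0.70 (standard error 0.41, 95% interval -0.15 to 1.55, limma adjusted p = 0.591, exact permutation p = 0.18). Neither difference passed the test, and the groups overlapped for both genes. *Saa3* differed by -0.11 (standard error 0.32), but with 2 of 6 and 4 of 6 spots well above background a genotype difference of this gene could not be judged. A gene was called when its adjusted p over all 32726 probes was 0.05 or lower and its fold change above 1.5, and 0.135% of all genes were called in this contrast. The intervals leave room for a level in iPGC1a-/- mice of 0.803 to 1.99 times that in iPGC1afl/fl mice for *Saa1*, and of 0.903 to 2.93 times for *Saa2*.

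The size of the genotype difference rested in part on 1 mouse. Replicate 1 of iPGC1a-/- HFD, on slide 3, had the highest *Saa1* (9.55) and the highest *Saa2* (9.67) of all HFD arrays. Without it, the differences were 0.08 for *Saa1* and 0.33 for *Saa2*. Within slides 1, 2 and 3 they were 0.19, -0.25 and 1.07 for *Saa1* and 0.39, -0.12 and 1.83 for *Saa2*, so the sign was not the same on every slide. For *Saa3* they were -0.05, -0.42 and 0.15. Against iPGC1afl/fl CHOW, iPGC1a-/- HFD differed by -4.58 for *Saa1*, -5.21 for *Saa2* and -1.84 for *Saa3*, again with no overlap, where 8.63% of all genes showed such a gap downwards. This contrast shares the CHOW arrays with the one that chose the members and was not tested.

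The signal of *Ppargc1a* itself was 10.94 ± 0.46 in iPGC1afl/fl CHOW, 11.37 ± 0.07 in iPGC1afl/fl HFD and 11.67 ± 0.26 in the arrays labelled iPGC1a-/- HFD (log2, SD, n = 6 each). It was thus not lower in the arrays labelled iPGC1a-/- (difference 0.30, limma adjusted p = 0.569). Whether its probes lie in the deleted part of the gene was not determined here, so this may check nothing, and every direction by genotype refers to the labels.

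*Saa1* and *Saa2* varied together from mouse to mouse inside each group, by more than most genes. Their SD within a group was 0.39 to 1.01, against a median over all probes of 0.167 to 0.178. In iPGC1afl/fl CHOW, where replicate 1 was lowest and replicate 4 highest for both genes, Pearson's r was 0.995 (exact permutation, adjusted p = 0.0125) and Spearman's rho 0.943 (adjusted p = 0.05). In iPGC1a-/- HFD, r was 0.980 (exact permutation, adjusted p = 0.0125) and rho 0.943 (adjusted p = 0.05). In iPGC1afl/fl HFD, r was 0.953 (exact permutation, adjusted p = 0.0194) and rho 0.83 (adjusted p = 0.117). Without the 2 arrays farthest from the median of *Saa1*, r was 0.981 in iPGC1afl/fl CHOW, 0.831 in iPGC1a-/- HFD and 0.505 in iPGC1afl/fl HFD, so in the last group the relation rested on those arrays. Left out singly, replicates 1, 2 and 4 of iPGC1afl/fl HFD (r = 0.888, 0.955 and 0.971) and replicate 1 of iPGC1a-/- HFD (r = 0.889) each took the adjusted p of their group above 0.05. With an array left out, the exact test has fewer pairings and cannot reach p-values as small. Without replicate 2 or 4 of iPGC1afl/fl HFD, r itself did not fall. All adjusted values here are over 6 relations, namely *Saa1* with *Saa2* and *Saa1* with *Saa3* in 3 groups. Whether either probe also reads the other gene's transcript, which bears on r, was not tested.

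The same order held within slides. Each slide holds 2 arrays of a group, too few for a correlation, so the order of the 2 arrays was compared after the values were seen. In 9 of 9 such pairs the array with the higher *Saa1* also had the higher *Saa2*. For *Saa3* the order followed *Saa1* in 8 of 9 pairs. On HFD, however, *Saa3* was well above background on only 2 of 6 iPGC1afl/fl and 4 of 6 iPGC1a-/- arrays. Its order and its r on HFD were thus read near background. Over the 6 arrays of a group, *Saa1* and *Saa3* had r = 0.195 in iPGC1afl/fl CHOW (exact permutation, adjusted p = 0.688, rho 0.314), 0.797 in iPGC1afl/fl HFD (adjusted p = 0.121, rho 0.657) and 0.524 in iPGC1a-/- HFD (adjusted p = 0.293, rho 0.771), and without the 2 farthest arrays r was 0.617, 0.827 and 0.0676. None of these passed the test. In iPGC1afl/fl CHOW, replicate 3 had by far the brightest *Saa3* (8.83) with a *Saa1* of 13.07, close to the median, and the next *Saa3* value was 6.83.

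**Figure D3:**
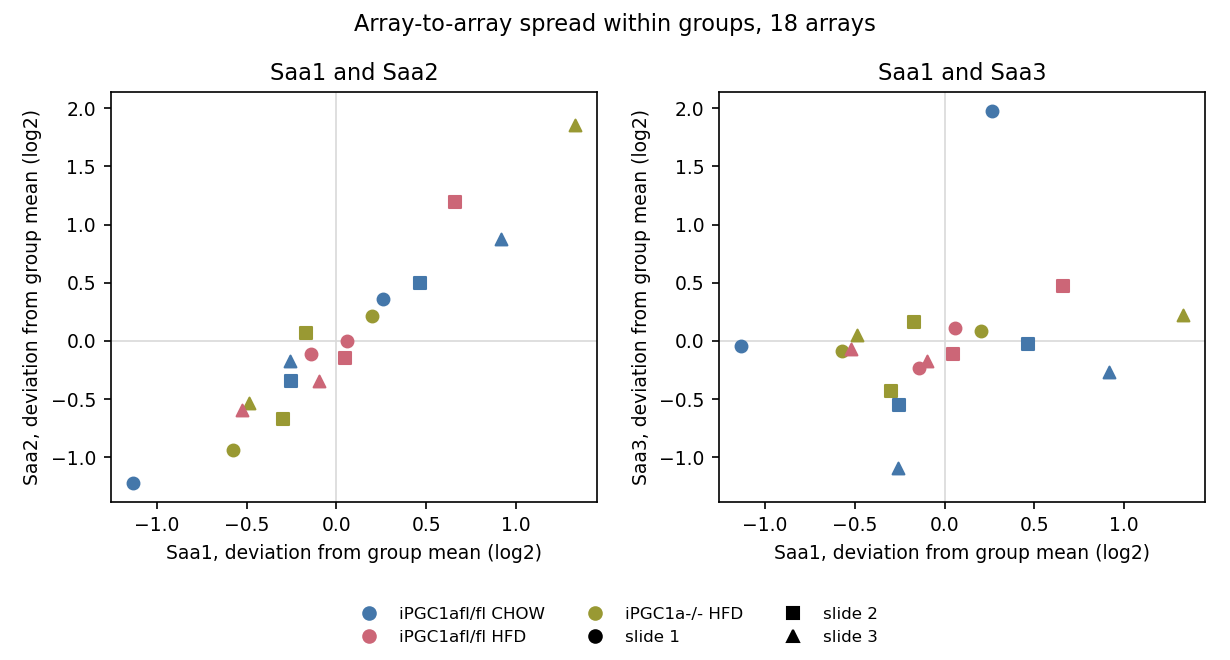
Deviation of each array from its group mean (log2), with *Saa1* on the horizontal axis and *Saa2* (left) or *Saa3* (right) on the vertical axis; colour is the group and symbol the slide, 18 arrays. *Saa1* and *Saa2* lie along a rising line in each group (r of 0.953 to 0.995), whereas *Saa3* scatters, with 1 CHOW array far above the others.

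The genes most like *Saa1* were sought by the correlation of deviations from the group means over the 18 arrays, given as a description. *Saa2* came first of all genes with r = 0.97. Outside the family, *Tceal8* (0.77), the predicted gene *Gm35059* (0.77), *Mboat1* (0.74), *Pglyrp1* (0.72) and *Pla2g2a* (0.71) followed. *Tceal8* and *Gm35059* were dim, with group means of 5.29 to 5.81 and 5.59 to 5.69. *Tceal8* stood apart on iPGC1afl/fl CHOW replicate 4 and iPGC1a-/- HFD replicate 1, the arrays with the highest *Saa1* of their groups. *Mboat1* encodes a phospholipid acyltransferase and *Pglyrp1* a secreted protein that binds bacterial peptidoglycan, while *Pla2g2a* belongs to the secreted phospholipase family. Whether these mice make an active *Pla2g2a* enzyme was not tested. Of these, *Mboat1* (-1.80), *Pglyrp1* (-1.23) and *Pla2g2a* (-0.97) had negative diet differences on the log2 scale, whereas *Tceal8* had -0.18 and *Gm35059* had 0.08. Ranked instead by the 18 values with the group differences left in, the genes outside the family nearest to *Saa1* were *Mboat1*, *Sqle*, *Fdps*, *Ceacam10* and an unnamed transcript, with diet differences of -1.80, -2.55, -1.69, -3.25 and -1.43. *Sqle* and *Fdps* encode enzymes of cholesterol synthesis. Since the CHOW arrays lie apart from the HFD arrays, the order of this second ranking mostly reads the diet difference, and no correlation is given for it.

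Genes around serum amyloid A were then followed in 5 lists: other acute phase proteins, cytokines with their receptors, signalling and transcription factors, receptors and binding partners of SAA, and epithelial defence genes. Of 101 listed genes, 66 were tested. On HFD in iPGC1afl/fl mice, 16 fell and 4 rose, which is 30.3% of those tested, while 8.43% of all genes tested were called (5.22% lower and 3.21% higher). The lists were chosen with earlier results of these data known, so nothing is read from their shares here and below. The median log2 difference was -0.08 over the lists and 0.00 over all genes. By genotype on HFD, 0 of the 66 were called, with a smallest limma adjusted p of 0.283, and 29 genes of the whole array were called. At an unadjusted p under 0.05, 2007 genes differed by genotype and 8040 by diet.

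The epithelial defence genes held the largest share, with 7 of 12 lower and 1 higher and a median of -0.94. *Ubd*, a ubiquitin-like modifier induced by inflammatory cytokines, fell by 4.43 (standard error 0.53, limma adjusted p = 6.8e-06), from 11.36 ± 1.50 to 6.93 ± 0.53 (SD, n = 6 each). *Reg3g* and *Reg3b*, lectins that kill bacteria at the mucosa, fell by 2.49 (limma adjusted p = 2.8e-05) and fell by 1.90 (limma adjusted p = 0.00013), respectively. Their paralog *Reg3a* rose by 1.25 (limma adjusted p = 0.00086), and whether the probes of these similar genes read only their own transcript was not tested. *Nos2*, the inducible nitric oxide synthase, fell by 2.47 (limma adjusted p = 5.9e-05), and the chemokine gene *Ccl20* fell by 1.26 (limma adjusted p = 0.00065), a size that ranged from -2.11 to -0.83 with the background correction. *Lcn2*, which withholds iron from bacteria, fell by 0.90 (limma adjusted p = 0.0044). The 6 CHOW arrays of *Ubd*, *Reg3g*, *Reg3b*, *Nos2* and *Ccl20* lay above the 6 arrays of iPGC1afl/fl HFD, as they did for 5.31% of all genes tested. The groups overlapped for *Lcn2* and *Pla2g2a*. In the other lists *C3*, *Nfkbiz* and *P2rx7*, among others, also showed no overlap, so this trait was not particular to the defence genes.

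Of the signalling and transcription factors, 4 of 22 fell and 1 rose (22.7%, against 8.43% of all genes tested). *Socs3*, a feedback inhibitor that STAT3 induces, fell by 1.39 (limma adjusted p = 0.012), with a wide spread on CHOW (11.25 to 14.76) that overlapped HFD (10.98 to 11.33). *Nfkbiz*, a nuclear cofactor of NF-kB, fell by 1.38 (limma adjusted p = 2.4e-05), but its second probe gave -0.41 (limma adjusted p = 0.0777) and the mean of both -0.89. *Stat3* itself had -0.32 (limma adjusted p = 0.0249), under the fold change threshold, and *Myd88*, the adaptor of Toll-like receptors, had -0.28 (limma adjusted p = 0.0702). Of the cytokine genes and receptors, 1 of 10 was lower and none higher, a share near that of all genes. That gene, *Il22ra2*, was well above background on 6, 2 and 4 of the 6 arrays of iPGC1afl/fl CHOW, iPGC1afl/fl HFD and iPGC1a-/- HFD. *Il22ra2* thus passed the filter through the CHOW group alone, where it is high. *Il22* was well above background on only 2, 1 and 2 of the 6 arrays of iPGC1afl/fl CHOW, iPGC1afl/fl HFD and iPGC1a-/- HFD, and *Il6* on 0 arrays of each group, so neither was tested. *Il22ra1*, the epithelial receptor subunit of interleukin 22, had -0.32 (limma adjusted p = 0.267). *Rarb*, a retinoic acid receptor, was well above background on 2, 0 and 1 arrays and was not tested.

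Of the other acute phase proteins, 2 of 6 tested were lower and none higher (33.3%, against 8.43% of all genes tested). Of these 2, *Lbp* was well above background on 6, 0 and 4 of the 6 arrays of iPGC1afl/fl CHOW, iPGC1afl/fl HFD and iPGC1a-/- HFD. *Lbp* thus passed the filter through the CHOW group alone, where it is high, and the size of its fall is not settled. The remaining 15 of the 21 listed were not tested. Complement *C3* fell by 1.36 (limma adjusted p = 0.007), with -0.82 at its second probe. Of the receptors and binding partners, 2 of 16 rose and 2 fell (25%, against 8.43% of all genes tested). *Cd36*, a scavenger receptor and fatty acid transporter, rose by 1.94 (limma adjusted p = 1.1e-05), and *Abca1*, which loads cholesterol onto apolipoproteins, rose by 1.84 (limma adjusted p = 1.8e-05). The second probe of *Abca1* gave 1.33 and the mean of its probes 1.58. Replicate 4 of iPGC1afl/fl CHOW had an *Abca1* of 7.52, far below the next CHOW array at 9.18. *P2rx7*, an ATP-gated channel, fell by 1.37 at its brightest probe (limma adjusted p = 2.3e-05), while its other probes gave -0.82 and -0.54, and the mean of all its probes gave -0.91. *Fpr2*, the formyl peptide receptor that binds SAA, had 0.13 (limma adjusted p = 0.34).

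**Figure D4:**
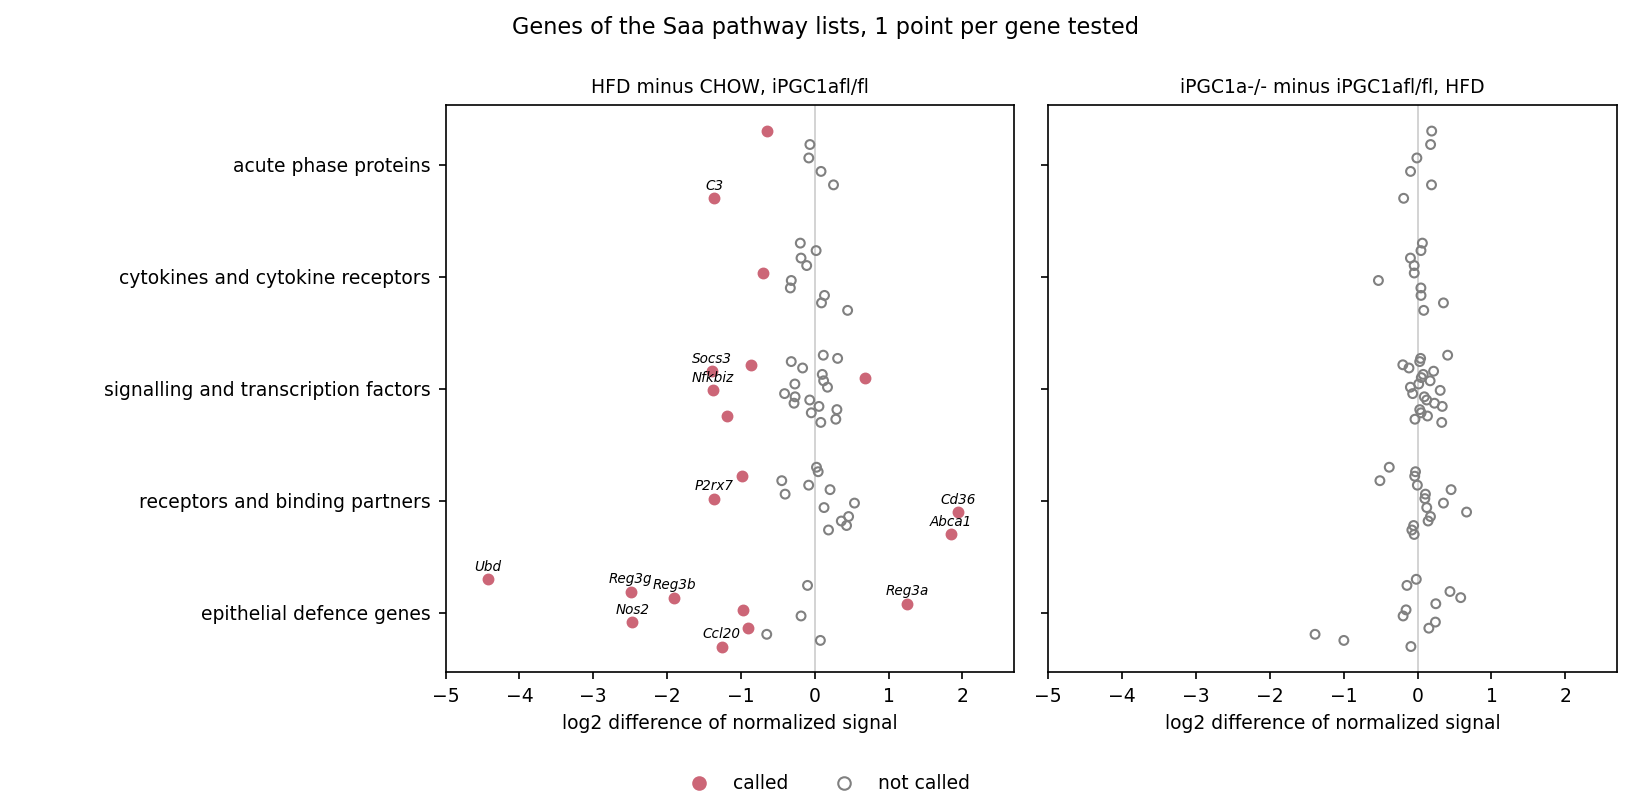
Log2 difference of normalized signal for the 66 tested genes of the 5 lists, by diet in iPGC1afl/fl mice (left) and by genotype on HFD (right); filled points were called (adjusted p of 0.05 or lower and fold change above 1.5), and the 12 called genes with the largest difference are named. Called genes lie mostly to the left in the diet panel, and none is called in the genotype panel.

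Cell type markers moved with the diet as well. The counts below stand beside 8.43% of all genes tested that were called by diet, 5.22% lower and 3.21% higher, and each list is short. The 8 enterocyte and 4 ileal enterocyte markers were well above background on all arrays, among them *Fabp6*, the ileal bile acid binding protein, at 17.14 ± 0.55, 17.03 ± 0.22 and 16.77 ± 0.38 (log2, SD, n = 6 each). Of the enterocyte markers, 3 of 8 were higher on HFD, namely *Alpi* (0.89), *Fabp1* (0.88) and *Apoa4* (0.98 on the log2 scale), with sums of 498727 to 659568 units in iPGC1afl/fl CHOW, 723164 to 809766 in iPGC1afl/fl HFD and 761453 to 910265 in iPGC1a-/- HFD. Of the ileal markers, 2 of 4 were lower, namely the bile acid transporter genes *Slc10a2* (-1.08) and *Slc51b* (-0.94), with sums of 173309 to 349416, 169696 to 240553 and 141555 to 247410 units. Of the lymphocyte lists, 3 of 4 B cell, 3 of 3 plasma cell and 4 of 5 T cell markers were lower on HFD, while *Cd4* was higher. Among the plasma cell markers, *Mzb1* was well above background on only 2 of 6 iPGC1afl/fl HFD arrays, so the size of its fall is not settled. The summed signal of the plasma cell markers was 568 to 1518 units in iPGC1afl/fl CHOW, 125 to 407 in iPGC1afl/fl HFD and 188 to 387 in iPGC1a-/- HFD, and that of the B cell markers was 514 to 3166, 159 to 994 and 283 to 706. The T cell sum, in which *Cd4* weighs most, was 9189 to 18224, 11535 to 21137 and 13747 to 28819. Goblet cell markers were lower in 4 of 5, with sums of 308282 to 401064, 158788 to 329847 and 196385 to 298924. Their part in the diet difference of the Saa genes was not tested, and in such mixtures fewer cells of a type and less RNA per cell cannot be told apart.

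Of the markers of other cells known to make SAA, some were well above background and others were not, so whether such cells were present is not settled. Of 5 macrophage markers, *Lyz2*, *Csf1r*, *Cd68* and *Cd14* were well above background on all 6 arrays of each group and *Adgre1* on 0 of them. *Cd14* fell by 1.29 (limma adjusted p = 5.7e-06) and the other 3 tested were not called, and their summed signal was 21986 to 47406 units in iPGC1afl/fl CHOW, 19443 to 69166 in iPGC1afl/fl HFD and 24745 to 49249 in iPGC1a-/- HFD. Of 4 adipocyte markers, *Cidec* and *Lep* were well above background on all arrays, *Plin1* on 5, 1 and 0 of 6 and *Adipoq* on 0, 0 and 1, with 0 of 3 tested called and sums of 5331 to 11945, 10273 to 18940 and 11061 to 16604 units. Of 4 hepatocyte markers, *Serpina1a*, *Ttr* and *Apoh* were well above background on all arrays and *Alb* on 1, 0 and 0 of 6, with 0 of 3 tested called and sums of 1631 to 2324, 914 to 3179 and 1602 to 2556 units. The macrophage, adipocyte and hepatocyte sums mostly read *Lyz2*, *Cidec* and *Serpina1a*, respectively. Which cells these transcripts came from, and the part of these cells in the Saa signal, was not tested. By genotype, no marker of any list was called.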

How the data were processed

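Ileum cells of 18 mice were measured on Agilent SurePrint G3 Mouse GE v2 arrays. The authors deposited raw spot intensity values from Agilent Feature Extraction 10.10.1.1 (submitters' processing notes) without normalization between arrays, and a table of log2 values. Their correction for washing bath and labelling serial was not repeated, because the labels do not name these batches. The groups, the replicate numbers and the diet came from the labels, and the members and gene lists were chosen with earlier results of these data known. Replicates are separate mice.

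After removal of control spots and of 46 to 153 outlier spots an array, repeated spots were averaged to 56605 probes. A probe stayed in when at least 5 of the 6 arrays in some group had it well above background. qsmooth, written anew here (window 0.05), was applied to log2 of the median signal. In R 4.3.3, limma 3.58.1 fitted the 3 groups in one model, and p-values were adjusted by Benjamini-Hochberg over 32726 probes. The brightest probe stood for its gene. Exact permutation tests were two-sided over 924 divisions of 12 arrays, or over all pairings of 6 arrays. Named genes were the members, the 12 called list genes with the largest difference per contrast, 8 genes with a set role, and the 5 nearest to *Saa1* by each ranking. Cell type lists numbered 17.

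Between 56.3% and 62.3% of spots per array were well above background and 0 were saturated. The number of arrays limits the precision, with a median standard error of 0.104 for a log2 difference. No 2 arrays were identical (highest correlation 0.997). The procedure was tested on simulated data. Other tools were data.table (version 1.17.8), Python 3.11.15, Biopython 1.88 for the alignment of RefSeq sequences and matplotlib 3.10.9. Alternatives were other background corrections and scalings, the deposited log2 values, a strict filter or none, blocks for slide or replicate number, fits of 2 groups at a time, another variance model, averaged probes, no fold change threshold, and each array left out.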

Additional observations from a re-analysis of the deposited data

Results flagged for a closer look

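In groups of 6, a single array was set apart when its gap to the nearest other array was a larger part of the group's range than Dixon's 95% critical value for 6 samples, which chance gives in about 1 of 20 groups. Among 60 groups tested, 8 exceeded it, and the part is given for each. Of the Saa genes, *Saa2* in iPGC1afl/fl HFD had replicate 1 above the others (0.666), and *Saa3* in iPGC1afl/fl CHOW had replicate 3 above the others (0.653). Without these arrays the diet difference was -6.16 for *Saa2* and -1.36 for *Saa3*. The same iPGC1afl/fl HFD replicate 1 was set apart for *Pla2g2a* (0.766). The others were *Ubd* in iPGC1afl/fl HFD replicate 5 (0.635), *Cd36* in iPGC1a-/- HFD replicate 1 (0.626), *Abca1* in iPGC1afl/fl CHOW replicate 4 (0.918) and *Tceal8* in iPGC1afl/fl CHOW replicate 4 (0.778) and iPGC1a-/- HFD replicate 1 (0.765).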

How the results depend on the processing

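The direction of the diet difference held for *Saa1*, *Saa2* and *Saa3* under every alternative run, and no genotype difference of *Saa1* or *Saa2* passed the test under any. *Saa1* ranged from -5.05 to -4.74 and *Saa2* from -6.18 to -5.58 over 12 alternatives. *Saa3*, near background on HFD, depended on the background correction: its diet difference was -3.13 with the scanner's background-subtracted signal after scaling to the 75th percentile, and iPGC1a-/- HFD against iPGC1afl/fl CHOW gave -3.39 with that signal and -1.19 with normexp. The strict filter left out *Saa3* and called 16 list genes by diet, 4 higher and 12 lower. With no fold change threshold, 5301 genes were called by diet and 46 by genotype, and 31 list genes by diet, 10 of them higher. The *Saa1* with *Saa3* relation in iPGC1afl/fl HFD passed under 75th percentile scaling of the median signal (r = 0.828, exact permutation, adjusted p = 0.0313). Of 1057 values under 34 settings, 1032 stayed on their side of the threshold or within the spread. No tested value changed sign, whereas 3 untested genotype differences within a slide did.

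Within single slides (2 arrays against 2), the values that moved by more than the spread, or to the other sign, were -2.76 for *Saa3* by diet on slide 1, -5.56 for *Saa1* and -6.73 for *Saa2* by diet on slide 3, and by genotype -0.25 for *Saa1* and -0.12 for *Saa2* on slide 2 and 1.07 for *Saa1*, 1.83 for *Saa2* and 0.15 for *Saa3* on slide 3.

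With each array left out in turn, the genotype comparison called 18 to 39 genes, the fewest without iPGC1afl/fl HFD replicate 4 (18) and 19 each without iPGC1afl/fl HFD replicates 1 and 2 and iPGC1a-/- HFD replicate 3. The r of *Saa1* with *Saa2* was 0.888 to 0.971 in iPGC1afl/fl HFD and 0.889 to 0.991 in iPGC1a-/- HFD, and that of *Saa1* with *Saa3* in iPGC1afl/fl HFD 0.188 to 0.959, where it passed without replicate 4 (exact permutation, adjusted p = 0.0167).

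Whether the replicate numbers pair the arrays was not settled. Of 18 pairs with the same number, 9 had a correlation of deviations above 0.1 (range -0.217 to 0.346), and 8 arrays correlated best with their own number. What chance would give for these counts was not computed. With the replicate number as a block, 1829 genes were called by diet and 25 by genotype, and the adjusted p by genotype was 0.744 for *Saa1* and 0.547 for *Saa2*, so neither call changed. Signal over background limits *Saa3* on HFD and *Saa4* throughout.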
